A study of Homo sapiens with 4 samples.

Results

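Translation initiation factors are the proteins that place the ribosome on the start codon of an mRNA, and their genes carry names beginning with EIF. Of the 61806 genes in the count table, 133 names matched the pattern EIF, a digit from 1 to 6 and further letters or digits. Removing 4 eIF2 kinase genes and 80 names that end in P and a number, most of them pseudogenes, left 49 initiation factor genes. The last step also removed the 3 genes of the eIF4E-binding proteins, which are described with the regulators. The rule used names alone and no measured value, although the choice was made with earlier results of these data known. Of the 49 genes, 48 passed the filter on low counts in the comparison below, and EIF4E1B, a germline relative of the cap-binding protein eIF4E, had 0 counts in every library.

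The SPNS2 group (2 libraries) was U118-MG, an established human glioma line, infected with a lentivirus that carried SPNS2 in the overexpression vector pCDH-CMV-MCS-EF1-puro. The NC group (2 libraries) was the same line infected with the negative control vector. Both groups had the genotype given as WT and were kept at 37 °C under 5% CO2 in DMEM supplemented with 10% fetal bovine serum, and each RNA library started from 1 µg of total RNA extracted with Trizol. The labels do not state whether replicate libraries derive from independent cultures or whether infected cells were cloned, so p-values reflect the spread among these 4 libraries alone, and that spread may be technical. SPNS2 encodes a membrane transporter that exports sphingosine-1-phosphate, and the comparison asks which transcripts differ when it is overexpressed.

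Initiation runs through a fixed order of complexes. The factors eIF1, eIF1A, eIF3 and eIF5 gather on the small ribosomal subunit together with eIF2, which carries the initiator tRNA and GTP. The cap-binding assembly of eIF4E, the scaffold eIF4G and the helicase eIF4A then brings the mRNA, the subunit scans to a start codon, and eIF5B joins the large subunit. The guanine nucleotide exchange factor eIF2B recycles eIF2, and stress kinases that phosphorylate eIF2 block that step. Many mRNAs of the translation machinery begin with a C followed by a run of pyrimidines, the motif known as the terminal oligopyrimidine tract, through which mTORC1 signalling controls their translation.

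Total counts were 31353373 and 34125159 in the SPNS2 libraries and 31513400 and 32992150 in the NC libraries. SPNS2 itself (ENSG00000183018, chromosome 17) had 7381 and 8224 counts in the SPNS2 libraries and 42 and 47 in the NC libraries, and these counts do not separate the introduced from the endogenous transcript. Its log2 fold change was 7.48 (SE 0.086, adjusted p = 0.00028, edgeR). The astroglial markers GFAP, S100B, AQP4 and SOX2 and the oligodendroglial factor OLIG2 stood at 0.238 CPM or less in every library (CPM, the count relative to the library's scaled total). Of the other 5 glioma markers, VIM rose (6827 and 6222 CPM in SPNS2, 4041 and 4744 CPM in NC libraries), PDGFRA fell (424 and 413 CPM in SPNS2, 1205 and 1128 CPM in NC libraries), NES fell (10.1 and 10.9 CPM in SPNS2, 17.2 and 20.3 CPM in NC libraries), and CD44 and EGFR were not called. The defining markers RBFOX3 (neuron), MOG (oligodendrocyte) and AIF1 (microglia) had 0 CPM in all 4 libraries. PTPRC (immune), CDH5 (endothelium), EPCAM and CDH1 (epithelium) reached at most 0.297 CPM. Summed over 3 immune genes the level was 76.2 and 65.8 CPM in SPNS2 and 130 and 111 CPM in NC libraries, nearly all of it from CD68, which fell (adjusted p = 0.0195, edgeR). Summed over 4 neuronal genes it was 154 and 165 CPM in SPNS2 and 89.5 and 136 CPM in NC libraries, most of it from TUBB3, which was not called (adjusted p = 0.156, edgeR), while SNAP25 rose (7.89 and 12.9 CPM in SPNS2, 3.65 and 2.02 CPM in NC libraries) and SYT1 fell (2.37 and 2.76 CPM in SPNS2, 16.2 and 15.7 CPM in NC libraries). Of the other endothelial genes, PECAM1 rose (6.04 and 6.71 CPM in SPNS2, 2.50 and 3.57 CPM in NC libraries) and VWF fell (log2 -2.66, adjusted p = 0.0465, edgeR). The part of these levels in the results was not tested.

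The mRNA start sites of the initiation factors are shown first because the pyrimidine run at the start is the sequence feature best known to join genes of the translation machinery. RefSeq windows on GRCh38.p14 were found for 42 of the 49 genes, and none was found for EIF2S2, EIF3A, EIF3CL, EIF3E, EIF3G, EIF3H and EIF3L. Each line gives 10 bases before the annotated start and 20 bases from it, read 5′ to 3′ on the gene's strand, and capitals mark the run, counted as C at the start followed by 4 or more C or T. The eIF3 genes and the eIF2D, eIF2A, eIF4B and eIF4A2 genes with a run come first, followed by 4 eIF3 genes without one.
EIF3K, chr19:38619178-38619207, plus strand: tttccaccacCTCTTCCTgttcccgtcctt
EIF3D, chr22:36529147-36529176, minus strand: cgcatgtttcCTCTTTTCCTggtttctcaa
EIF3F, chr11:7987327-7987356, plus strand: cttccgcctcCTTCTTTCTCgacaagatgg
EIF3M, chr11:32583821-32583850, plus strand: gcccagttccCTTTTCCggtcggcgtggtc
EIF2D, chr1:206612446-206612475, minus strand: ccagccgggcCCTTTTCgcggccgggcccc
EIF2A, chr3:150546777-150546806, plus strand: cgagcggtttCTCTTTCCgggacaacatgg
EIF4B, chr12:53006446-53006475, plus strand: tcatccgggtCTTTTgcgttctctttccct
EIF4A2, chr3:186783567-186783596, plus strand: gcgccgctgtCTTTTCagtcgggcgctgag
EIF3C, chr16:28688548-28688577, plus strand: tcccacccccgtggcaggcagccctgcacc
EIF3I, chr1:32222397-32222426, plus strand: ttccggtcttactcacgttgcggccttcct
EIF3B, chr7:2354817-2354846, plus strand: tcgcacgcacatggctgggctgtagccgtc
EIF3J, chr15:44537137-44537166, plus strand: ccgccgtgctaactcctcgctagctctccc

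A start-site run was present in 10 of the 42 initiation factor genes with a window (23.8%), against 836 of 11692 tested genes with a window (7.15%) and 4.07% of all 35116 RefSeq windows. The other two carriers were EIF2S3 and its copy EIF2S3B. Among the 8 eIF3 genes with a window, EIF3D, EIF3F, EIF3K and EIF3M held a run. A match describes the annotated start only, and start sites in U118-MG were not measured here.

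Across the 49 genes, 16 were higher in SPNS2 cells, 1 was lower and 31 were not called by edgeR at an adjusted p under 0.05. Over all 17853 genes tested, 12.1% were called higher, 11.3% lower and 23.4% in either direction. The median log2 fold change was 0.17 over the 48 tested initiation factor genes and -0.01 over all genes, and 38 of the 48 values were positive. The groups did not overlap, with both SPNS2 libraries above both NC libraries, in 27 genes and with both below in 7, where the shares over all genes were 32.4% and 33.6%. The 16 genes that rose did so by 1.17-fold to 2.65-fold. Under scaling by upper quartiles or by library totals, 13 rose and 3 fell, in place of the 16 and 1 with the trimmed-mean (TMM) factors used here. Of all genes, 10.7% were called higher under upper quartiles and 10.4% under library totals. Of the 17853 genes tested, 2225 were called lower under upper quartiles and 2289 under library totals.

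The 49 genes took 0.981% and 1.005% of all counts in SPNS2 and 0.897% and 0.919% in NC libraries. Summed TMM-scaled levels were 9988 and 10277 CPM in SPNS2 and 8822 and 9009 CPM in NC libraries, so the groups did not overlap, although 2 libraries against 2 cannot give an exact two-sided permutation p below 0.333. The eIF3 genes made up 651 of the 1216 CPM by which the group means differed. Both of the near-identical genes EIF3C and EIF3CL are included in these sums. In bulk RNA a higher level can come from more transcripts per cell or from more cells that express the gene, and these cannot be told apart. Levels below are TMM-scaled CPM, given for replicate 1 and then replicate 2 of each group.

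**Figure D1:**
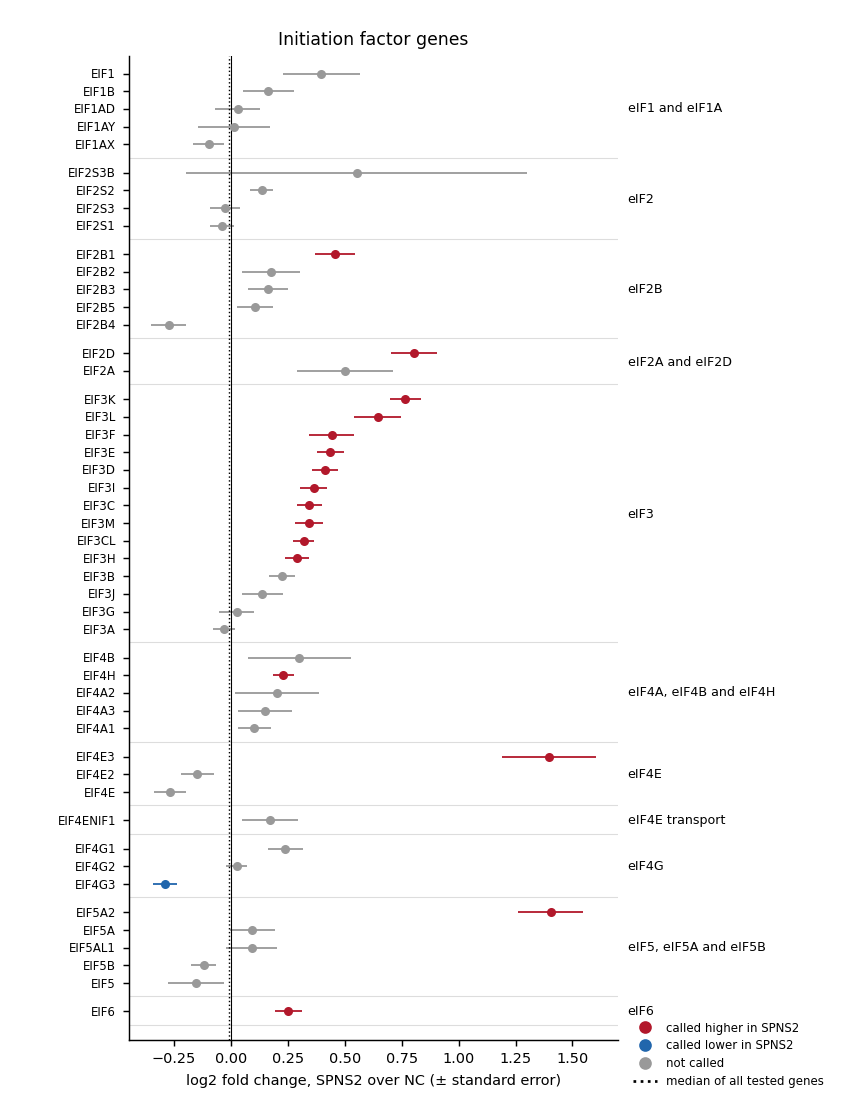
Log2 fold change of SPNS2 over NC (points) with its standard error (lines) for the 48 tested initiation factor genes, grouped by complex; red marks genes called higher, blue genes called lower and grey genes not called, and the dotted line is the median of all tested genes. Red points gather in eIF3, where 10 of 14 genes were called higher, and lie alone in most other complexes, while EIF4G3 is the only blue point.

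The eIF3 complex is the largest initiation factor, a scaffold on the small ribosomal subunit that binds mRNA and several other factors. Of its 14 genes, 10 rose in SPNS2 cells, none fell and 4 were not called, against the 12.1% of all genes called higher. These 10 include the near-identical EIF3C and EIF3CL. With such copies added to their parent gene, 9 eIF3 genes were called higher, again against 12.1% of all genes. DESeq2 and limma-voom each called 11 higher and 0 lower, where 14.6% and 12.5% of all genes were called higher. At an unadjusted p under 0.05 edgeR placed 11 higher and 0 lower. The share of all genes at that unadjusted threshold, also used below, was not counted, so counts at it cannot be set against all genes. The median log2 fold change of the 14 genes was 0.34, which is close to the 75th percentile of all tested genes (0.34). In 12 of the 14 genes both SPNS2 libraries lay above both NC libraries, and in none did both lie below. Over all tested genes these shares were 32.4% above and 33.6% below.

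EIF3K (ENSG00000178982, chromosome 19, 38619082 to 38636955, plus strand) had the strongest evidence of the complex. It stood at 109 and 112 CPM in SPNS2 and 67.2 and 62.8 CPM in NC libraries, with means of 110.5 ± 1.78 and 65.0 ± 3.13 (SD, n = 2 each). The libraries of each group lay close together and the groups were far apart. It rose 1.70-fold (log2 0.77, SE 0.069, adjusted p = 0.0052, edgeR). EIF3L (ENSG00000100129, chromosome 22, 37848868 to 37889407, plus strand), which forms a small module with eIF3k at the edge of the complex, stood at 274 and 327 CPM in SPNS2 and 195 and 189 CPM in NC libraries. It rose 1.56-fold (log2 0.64, SE 0.102, adjusted p = 0.0189, edgeR), with the SPNS2 libraries further apart than the NC libraries. Of the exonic bases of EIF3L, 41.1% also lie in the annotated gene AL022311.1 on the same strand, which itself had 153 and 81 counts in SPNS2 and 65 and 60 counts in NC libraries.

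Most helical subunits of the complex share the PCI fold and a pair share the MPN fold, and together they build its core. Counted with the near-copy EIF3CL, 8 of these 9 genes rose. EIF3E was at 286 and 305 CPM in SPNS2 and 219 and 217 CPM in NC libraries (log2 0.44, SE 0.059, adjusted p = 0.0132, edgeR). EIF3F, an MPN subunit, was at 101 and 102 CPM in SPNS2 and 68.6 and 80.8 CPM in NC libraries (log2 0.44, SE 0.098, adjusted p = 0.041, edgeR). EIF3F missed the threshold under scaling by upper quartiles (0.0545) or library totals (0.0565) and without the filter on low counts (0.0524). Its partner EIF3H was at 188 and 189 CPM in SPNS2 and 155 and 154 CPM in NC libraries (log2 0.29, adjusted p = 0.0267). The PCI subunit EIF3M was at 119 and 124 CPM in SPNS2 and 96.9 and 94.7 CPM in NC libraries (log2 0.34, adjusted p = 0.0255). In each of these genes the lower SPNS2 library exceeded the higher NC library. EIF3A, the largest subunit and the other PCI protein, was not called, at 499 and 518 CPM in SPNS2 and 525 and 512 CPM in NC libraries (log2 -0.03, SE 0.049, adjusted p = 0.722). With the median of its chromosome arm 10q (-0.24) removed, EIF3A had a log2 value of 0.21 (adjusted p = 0.0525).

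EIF3C and EIF3CL on chromosome 16 are near-identical, and 96.0% of the 75-base stretches of EIF3CL also occur in EIF3C, so their counts cannot be assigned with certainty. EIF3C was at 378 and 395 CPM in SPNS2 and 298 and 310 CPM in NC libraries (log2 0.34, adjusted p = 0.0195, edgeR). EIF3CL was at 436 and 428 CPM in SPNS2 and 349 and 344 CPM in NC libraries (log2 0.32, adjusted p = 0.0161). Added together they came to 814 and 823 CPM in SPNS2 and 647 and 654 CPM in NC libraries, a 1.26-fold rise (log2 0.33, SE 0.041, adjusted p = 0.0111). The sum does not depend on how reads were split between them. Any reads counted for both genes would enter it more than once, and whether this happened is not known.

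Among the remaining 5 subunits, 2 rose. EIF3D, which can itself bind the cap of some mRNAs, was at 239 and 231 CPM in SPNS2 and 173 and 180 CPM in NC libraries (log2 0.41, SE 0.058, adjusted p = 0.0142, edgeR). EIF3I, a WD-repeat subunit, was at 310 and 311 CPM in SPNS2 and 234 and 249 CPM in NC libraries (log2 0.36, SE 0.058, adjusted p = 0.0195). EIF3B, the scaffold that holds eIF3i and eIF3g, was at 263 and 275 CPM in SPNS2 and 226 and 234 CPM in NC libraries and missed the threshold (log2 0.23, SE 0.057, adjusted p = 0.0539). EIF3B passed it with DESeq2 and limma-voom. The loosely bound EIF3J (66.0 and 69.3 CPM in SPNS2, 57.7 and 65.2 CPM in NC libraries) and the RNA-binding EIF3G (135 and 149 CPM in SPNS2, 144 and 136 CPM in NC libraries) had log2 values of 0.14 and 0.03, with adjusted p of 0.333 and 0.842. EIF3A and EIF3G had the values nearest 0, although with arm medians removed EIF3A had 0.21, EIF3J 0.35 and EIF3G 0.04.

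Summed over 14 genes, eIF3 stood at 3403 and 3535 CPM in SPNS2 and 2808 and 2829 CPM in NC libraries. This sum includes EIF3C and EIF3CL, so any reads counted for both entered it more than once. Per kilobase of annotated exon, and leaving out EIF3C and EIF3CL, the mean levels ran from EIF3F, at 10.8 CPM per kilobase in SPNS2 and 7.92 in NC libraries, to EIF3I, at 180 in SPNS2 and 140 in NC libraries. The same genes marked both ends in each group.

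Apart from EIF3K, the calls of single eIF3 genes depended on which libraries entered. With 1 library left out, the group with a single library is assumed to vary like the other, and between 1 and 4 eIF3 genes passed. Over all genes, 5.01% to 5.75% were called higher in these fits, against 12.1% with all libraries. EIF3K passed each time, with adjusted p of 0.0262 without SPNS2 replicate 1, 0.0295 without SPNS2 replicate 2, 0.0265 without NC replicate 1 and 0.0313 without NC replicate 2. Without SPNS2 replicate 1 the genes that kept their call were EIF3L, EIF3E, EIF3K and EIF3C, and the others had adjusted p of 0.0523 to 0.118. Without SPNS2 replicate 2 they were EIF3L, EIF3D, EIF3E and EIF3K, and the others had 0.0505 to 0.128. Without NC replicate 1 EIF3K alone kept its call, and the other 9 had 0.0638 to 0.111. Without NC replicate 2 EIF3F and EIF3K kept theirs, and the other 8 had 0.0569 to 0.12. No gene called in the full comparison changed sign in any of these fits.

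**Figure D2:**
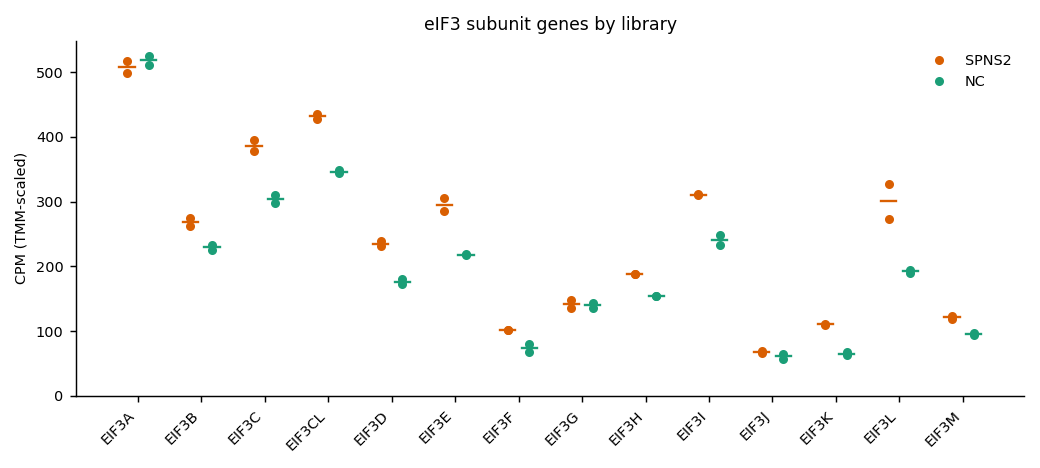
TMM-scaled CPM of the 14 eIF3 genes in each library (points) with the group mean (bars), SPNS2 in orange to the left of NC in green. In 12 genes both orange points lie above both green points, which held for 32.4% of all tested genes. EIF3A and EIF3G show overlapping groups.

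Of the 5 genes of the eIF1 and eIF1A family, 0 were called by edgeR, DESeq2 or limma-voom and 0 had an unadjusted p under 0.05. EIF1, which guards start codon choice, was at 380 and 383 CPM in SPNS2 and 242 and 338 CPM in NC libraries (log2 0.40, SE 0.168, adjusted p = 0.166, edgeR), and NC replicate 1 was far below the other NC library. Without NC replicate 2, EIF1 had a log2 value of 0.66 and passed the test, with an adjusted p of 0.0257. EIF1AX, which cooperates with eIF1 in scanning, was at 128 and 140 CPM in SPNS2 and 142 and 145 CPM in NC libraries (log2 -0.10, adjusted p = 0.378). EIF1B, a close relative of EIF1, had a log2 value of 0.16 (adjusted p = 0.355), and EIF1AD and EIF1AY had 0.03 and 0.01.

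The heterotrimer eIF2 delivers the initiator tRNA. Its alpha subunit gene EIF2S1, whose protein is the target of the stress kinases, was at 267 and 264 CPM in SPNS2 and 267 and 277 CPM in NC libraries (log2 -0.04, adjusted p = 0.656, edgeR). The beta subunit gene EIF2S2 was at 288 and 291 CPM in SPNS2 and 265 and 261 CPM in NC libraries (log2 0.14, SE 0.050, adjusted p = 0.126). The gamma subunit gene EIF2S3 was at 181 and 193 CPM in SPNS2 and 194 and 186 CPM in NC libraries (log2 -0.02, adjusted p = 0.822). EIF2S2 was the 1 gene of the 4 with an unadjusted p under 0.05, and 0 were called by edgeR, DESeq2 or limma-voom. The copy EIF2S3B varied widely at a low level, at 4.55 and 3.66 CPM in SPNS2 and 4.65 and 0.951 CPM in NC libraries (log2 0.55, SE 0.75, adjusted p = 0.645).

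Of the 5 subunits of the exchange factor eIF2B, 1 rose. EIF2B1, the alpha subunit that joins the complex into a decamer, was at 59.4 and 53.9 CPM in SPNS2 and 42.0 and 40.4 CPM in NC libraries (1.37-fold, log2 0.46, SE 0.088, adjusted p = 0.0298, edgeR). EIF2B1 passed in none of the fits without 1 library, where its adjusted p was 0.102 without SPNS2 replicate 1, 0.0611 without SPNS2 replicate 2, 0.0988 without NC replicate 1 and 0.114 without NC replicate 2. EIF2B4, the delta subunit, lay at the other end, at 43.4 and 45.8 CPM in SPNS2 and 54.3 and 53.5 CPM in NC libraries (log2 -0.27, SE 0.077, adjusted p = 0.0717). EIF2B4 passed the test as lower under scaling by upper quartiles and by library totals, and with arm medians removed it had a log2 value of -0.10 (adjusted p = 0.418). The beta, gamma and catalytic epsilon subunit genes EIF2B2, EIF2B3 and EIF2B5 had log2 values of 0.18, 0.16 and 0.10, with adjusted p of 0.376, 0.254 and 0.399.

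The proteins eIF2A and eIF2D can bring a tRNA to the ribosome without eIF2. EIF2D (ENSG00000143486, chromosome 1, 206571292 to 206612463, minus strand) was at 46.4 and 47.2 CPM in SPNS2 and 28.3 and 25.3 CPM in NC libraries, with means of 46.8 ± 0.554 and 26.8 ± 2.17 (SD, n = 2 each). It rose 1.75-fold (log2 0.81, SE 0.101, adjusted p = 0.0111, edgeR), and its log2 value lay between 0.72 and 0.89 and passed the test with each library left out. EIF2A was at 138 and 134 CPM in SPNS2 and 116 and 76.2 CPM in NC libraries (log2 0.50, SE 0.212, adjusted p = 0.166). The NC libraries of EIF2A differed more from each other than the higher of them did from SPNS2, and without NC replicate 1 it had a log2 value of 0.84 and an adjusted p of 0.0247.

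Among the helicase eIF4A and its helpers eIF4B and eIF4H, 1 of 5 genes rose. EIF4H was at 462 and 469 CPM in SPNS2 and 394 and 400 CPM in NC libraries (1.17-fold, log2 0.23, SE 0.046, adjusted p = 0.0319, edgeR). It did not pass when a library was left out, with adjusted p of 0.0734 and 0.0959 without SPNS2 replicate 1 and replicate 2 and 0.133 and 0.12 without NC replicate 1 and replicate 2. EIF4A1, the main helicase, was at 368 and 332 CPM in SPNS2 and 334 and 319 CPM in NC libraries (log2 0.10, adjusted p = 0.371). With the counts of the readthrough gene SENP3-EIF4A1 added it had a log2 value of 0.20 and an adjusted p of 0.0672. The annotated gene AC016876.2, which holds 31.1% of the 75-base stretches of EIF4A1, was not added. AC016876.2 had 413 and 816 counts in SPNS2 and 340 and 1317 counts in NC libraries. EIF4A3, the helicase of the exon junction complex, had a log2 value of 0.15 (adjusted p = 0.418).

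EIF4B and EIF4A2 differed widely between the SPNS2 libraries. EIF4B was at 258 and 390 CPM in SPNS2 and 236 and 289 CPM in NC libraries (log2 0.30, SE 0.227, adjusted p = 0.399, edgeR). EIF4A2 was at 235 and 341 CPM in SPNS2 and 247 and 253 CPM in NC libraries (log2 0.20, SE 0.186, adjusted p = 0.486). In both genes SPNS2 replicate 2 was the highest of the 4 libraries. Leaving out single libraries moved EIF4B between -0.02 and 0.59 and EIF4A2 between -0.09 and 0.46, and EIF4A2 passed the test without SPNS2 replicate 1, with an adjusted p of 0.0342.

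Of the 3 cap-binding protein genes tested, 1 rose and the others were not called. EIF4E, the main cap-binding protein, was at 52.4 and 50.4 CPM in SPNS2 and 61.0 and 62.7 CPM in NC libraries (log2 -0.27, SE 0.072, adjusted p = 0.0647, edgeR). It passed the test as lower under scaling by upper quartiles or library totals and with a minimum mean of 1 CPM, whereas with the 4q median of -0.32 removed its direction turned (log2 0.06, adjusted p = 0.638). EIF4E2, a cap-binding protein that represses translation with GIGYF2, was at 65.9 and 61.7 CPM in SPNS2 and 71.4 and 69.9 CPM in NC libraries (log2 -0.15, adjusted p = 0.217). EIF4E3 (ENSG00000163412, chromosome 3, 71675416 to 71754773, minus strand), a less studied relative that binds the cap in its own way, rose 2.63-fold. It was at 10.0 and 8.03 CPM in SPNS2 and 3.62 and 3.24 CPM in NC libraries, with means of 9.04 ± 1.42 and 3.43 ± 0.268 (SD, n = 2 each; log2 1.40, SE 0.204, adjusted p = 0.0158). EIF4E3 kept its call without SPNS2 replicate 2 (adjusted p = 0.0353) and lost it without SPNS2 replicate 1 (0.0548), NC replicate 1 (0.0613) and NC replicate 2 (0.0746). Of the summed CPM of EIF4E, EIF4E2 and EIF4E3, EIF4E3 took 7.82% and 6.69% in SPNS2 and 2.66% and 2.39% in NC libraries (exact permutation p = 0.333, two-sided, the smallest possible). EIF4ENIF1, the transporter of eIF4E into the nucleus, had a log2 value of 0.17 (adjusted p = 0.372).

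The scaffold eIF4G bridges the cap and the ribosome. EIF4G3 (ENSG00000075151, chromosome 1, 20806292 to 21176888, minus strand) was the only initiation factor gene that fell, and the other scaffold genes were not called. It was at 159 and 161 CPM in SPNS2 and 196 and 195 CPM in NC libraries, with means of 160 ± 1.62 and 196 ± 0.270 (SD, n = 2 each; log2 -0.29, SE 0.053, adjusted p = 0.0271, edgeR). Both SPNS2 libraries lay below both NC libraries, but EIF4G3 did not pass with any library left out, where its adjusted p was 0.108 without SPNS2 replicate 1, 0.0901 without SPNS2 replicate 2, 0.114 without NC replicate 1 and 0.11 without NC replicate 2. EIF4G1, its more abundant paralogue, was at 1076 and 944 CPM in SPNS2 and 843 and 867 CPM in NC libraries (log2 0.24, SE 0.075, adjusted p = 0.0902), and it passed without SPNS2 replicate 2, with an adjusted p of 0.0361 and a log2 value of 0.33. The share of EIF4G3 in the summed CPM of both was 12.9% and 14.6% in SPNS2 and 18.8% and 18.4% in NC libraries (exact permutation p = 0.333, two-sided, the smallest possible). EIF4G2, a relative that lacks the eIF4E-binding region, was at 981 and 986 CPM in SPNS2 and 991 and 940 CPM in NC libraries (log2 0.03, adjusted p = 0.724, and -0.12 with arm medians removed).

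The factors that act at and after start codon recognition gave 1 call among 5 genes. EIF5A2 (ENSG00000163577, chromosome 3, 170888415 to 170908693, minus strand), a paralogue of the hypusine-containing factor eIF5A that is known for overexpression in several cancers, had the largest fold change of all initiation factor genes in these libraries. It was at 15.3 CPM in both SPNS2 libraries and at 5.52 and 6.03 CPM in NC libraries, with means of 15.3 ± 0.055 and 5.78 ± 0.362 (SD, n = 2 each). EIF5A2 rose 2.65-fold (log2 1.40, SE 0.141, adjusted p = 0.0067, edgeR) and passed with each library left out, with log2 values of 1.34 to 1.47. EIF5A itself was at 403 and 410 CPM in SPNS2 and 346 and 416 CPM in NC libraries (log2 0.09, adjusted p = 0.546), with overlapping groups.

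Per kilobase of exon, EIF5A2 stood at 2.73 CPM in SPNS2 and 1.03 CPM in NC cells, far under EIF5A at 144 CPM in SPNS2 and 135 CPM in NC cells. EIF5A2 made up 3.66% and 3.59% of the summed CPM of both paralogues in SPNS2 and 1.57% and 1.43% in NC libraries (exact permutation p = 0.333, two-sided, the smallest possible). The rise was thus large for EIF5A2 and small against the total of the family. The copy EIF5AL1 had a log2 value of 0.09 (adjusted p = 0.607). EIF5, which activates the GTPase of eIF2, was at 119 and 150 CPM in SPNS2 and 151 and 148 CPM in NC libraries (log2 -0.15, adjusted p = 0.428), and the subunit-joining GTPase gene EIF5B was at 191 and 197 CPM in SPNS2 and 208 and 213 CPM in NC libraries (log2 -0.12, adjusted p = 0.199, and 0.03 with arm medians removed).

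EIF6, which keeps free large subunits from joining too early, was at 289 and 297 CPM in SPNS2 and 238 and 254 CPM in NC libraries. It rose 1.19-fold (log2 0.25, SE 0.059, adjusted p = 0.0464, edgeR), close to the threshold. EIF6 lost its call with any library left out, with adjusted p of 0.0997 and 0.143 without SPNS2 replicate 1 and replicate 2 and 0.177 and 0.102 without NC replicate 1 and replicate 2, and it also lost it under scaling by upper quartiles (0.078) or library totals (0.0829).

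**Figure D3:**
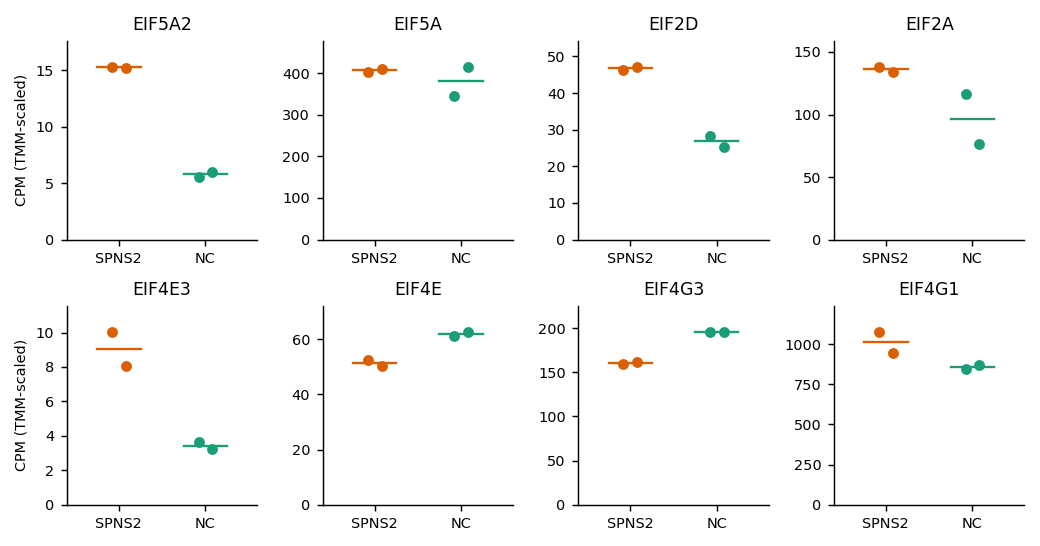
TMM-scaled CPM by library (points) and group mean (bars) for 4 pairs of genes, with SPNS2 to the left of NC. The pairs are EIF5A2 and EIF5A, EIF2D and EIF2A, EIF4E3 and EIF4E, and EIF4G3 and EIF4G1. Every axis starts at 0 and has its own range. EIF5A2 stands at 15.3 CPM in both SPNS2 libraries and at or below 6.03 CPM in NC libraries while EIF5A overlaps, and EIF4E3 lies higher but EIF4E lower in both SPNS2 libraries.

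Genes with and without a start-site run were among those that rose. Of the 10 initiation factor genes with a run, 5 rose and 0 fell (median log2 0.43), and of the 31 tested ones with a window and no run, 7 rose and 1 fell (median log2 0.14). Over all tested genes with a window, 17.6% of those with a run rose and 13.2% fell, with a median of 0.02. Of the genes without a run 14% rose and 12.8% fell, with a median of -0.001. EIF3I and EIF3C rose without a run at the annotated start, and EIF2S3 carried one and had a log2 value of -0.02.

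The bases upstream of EIF3K and EIF5A2, which had the smallest adjusted p of the initiation factor genes, are shown as RefSeq windows of 250 bases before the annotated start on GRCh38.p14. Capitals mark matches to the E-box CACGTG, the ETS-type motif CCGGAAG and the CCAAT box, all searched on both strands, together with the TATA box TATAAA.
EIF3K, chr19:38618938-38619187, plus strand: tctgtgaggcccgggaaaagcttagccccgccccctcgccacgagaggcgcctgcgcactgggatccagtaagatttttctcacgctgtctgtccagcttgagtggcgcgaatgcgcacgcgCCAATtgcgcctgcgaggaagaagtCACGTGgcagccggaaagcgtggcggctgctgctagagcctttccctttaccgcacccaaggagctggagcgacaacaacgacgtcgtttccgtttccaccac
EIF5A2, chr3:170908638-170908887, minus strand: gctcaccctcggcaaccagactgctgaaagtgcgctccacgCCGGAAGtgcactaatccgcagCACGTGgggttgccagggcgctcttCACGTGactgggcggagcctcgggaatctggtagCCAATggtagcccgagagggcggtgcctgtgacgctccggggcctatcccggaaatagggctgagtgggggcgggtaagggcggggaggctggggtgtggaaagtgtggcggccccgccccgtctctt

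Counting the base just before the start as -1, the EIF3K window held a CCAAT box that begins at -128 and an E-box that begins at -103. The EIF5A2 window held an ETS-type motif at -209, E-boxes at -187 and -162 and a CCAAT box at -128. Within 250 upstream bases the E-box occurred in 10 of the 42 initiation factor genes with a window (23.8%), 10.8% of tested genes and 6.34% of all windows. The CCAAT box occurred in 18 of the 42 (42.9%) and 41.6% of tested genes, and the ETS-type motif in 9 (21.4%) and 18.1%. The TATA box was found in EIF4A2 alone of the 42, and in 8.6% of tested genes. A match is a description of letters, and no binding was measured in these libraries.

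Genes of whole chromosome arms differed between the groups, so position was examined beside the calls. The median log2 fold change of all tested genes on an arm ranged from -0.39 on 11q to 0.43 on 5q. The 49 genes lie on 27 arms. The 10 eIF3 genes that rose lie on 6 arms, whose medians were 0.033 to 0.159. With the arm medians removed, 10 initiation factor genes were called higher and 1 lower, and 6 of the eIF3 genes kept their call, where 9.62% of all genes were called higher and 18.4% in either direction. EIF3D (log2 0.25, adjusted p = 0.0503, edgeR), EIF3F (0.29, 0.113), EIF3H (0.23, 0.0528), EIF3M (0.19, 0.103), EIF4H (0.17, 0.0692) and EIF6 (0.20, 0.0833) no longer passed, with log2 values that were smaller than before but still positive. EIF3K (log2 0.69), EIF5A2 (1.37), EIF2D (0.67) and EIF4E3 (1.31) kept their calls.

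Regulators and partners of the initiation factors were examined in 8 lists of 51 genes in all. Of these, 12 rose in SPNS2 cells, 3 fell and 36 were not called, with 0.09 as the median log2 value, against 12.1% of all genes called higher, 11.3% lower and a median of -0.01. Each of the 8 lists held at least 1 call. With arm medians removed, PPP1CA (log2 0.58, adjusted p = 0.0242, edgeR), EEF1B2 (0.25, 0.0455) and EEF1G (0.41, 0.0109) also passed as higher, and 13 genes of the lists were called higher and 1 lower.

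Of 9 genes for eIF2 kinases and the phosphatase that reverses them, 2 rose. PPP1R15A, the stress-induced subunit that directs the phosphatase to eIF2, was at 329 and 326 CPM in SPNS2 and 238 and 247 CPM in NC libraries (log2 0.43, SE 0.052, adjusted p = 0.0103, edgeR). EIF2AK4, the amino acid sensing kinase GCN2, was at 175 and 184 CPM in SPNS2 and 142 and 140 CPM in NC libraries (log2 0.35, SE 0.059, adjusted p = 0.0218). EIF2AK3, the kinase PERK of the endoplasmic reticulum, was not called, at 28.5 and 31.8 CPM in SPNS2 and 38.3 and 45.6 CPM in NC libraries (log2 -0.48, adjusted p = 0.0668). PPP1R15A kept its call in each fit without 1 library except that without NC replicate 1 (adjusted p = 0.0555), and EIF2AK4 lost it without SPNS2 replicate 1 (0.0523), SPNS2 replicate 2 (0.0828), NC replicate 1 (0.0927) and NC replicate 2 (0.101).

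Of 8 genes that control cap binding, 1 rose and 1 fell. EIF4EBP1, which sequesters eIF4E unless mTORC1 phosphorylates it, was at 112 and 102 CPM in SPNS2 and 75.1 and 67.1 CPM in NC libraries (log2 0.59, SE 0.093, adjusted p = 0.0189, edgeR). GIGYF2, the partner of eIF4E2, was at 91.4 and 99.3 CPM in SPNS2 and 129 and 123 CPM in NC libraries (log2 -0.40, SE 0.073, adjusted p = 0.0268). LARP1, which binds terminal oligopyrimidine mRNAs, was at 419 and 256 CPM in SPNS2 and 258 and 220 CPM in NC libraries, and its SPNS2 libraries disagreed (log2 0.50, SE 0.254, adjusted p = 0.232). EIF4EBP1 lost its call without SPNS2 replicate 1 (0.0666) and NC replicate 2 (0.0758). GIGYF2 lost it without SPNS2 replicate 1 (0.103), SPNS2 replicate 2 (0.0603), NC replicate 1 (0.114) and NC replicate 2 (0.082), and also with arm medians removed (0.0844).

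Of 10 mTORC1 genes, 1 rose. TSC2, an inhibitor of the pathway, was at 84.6 and 85.2 CPM in SPNS2 and 68.8 and 65.0 CPM in NC libraries (log2 0.34, SE 0.067, adjusted p = 0.0305, edgeR). TSC2 did not pass without SPNS2 replicate 1 (0.098), SPNS2 replicate 2 (0.111), NC replicate 1 (0.0877) or NC replicate 2 (0.127). The kinase gene MTOR was at 140 and 145 CPM in SPNS2 and 143 and 141 CPM in NC libraries, with overlapping groups.

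Of 5 genes for poly(A)-binding proteins and their regulators, 2 rose, and they have opposite roles. PAIP1, which stimulates translation with eIF4A and the poly(A)-binding protein, was at 130 and 139 CPM in SPNS2 and 85.4 and 81.1 CPM in NC libraries (1.61-fold, log2 0.69, SE 0.071, adjusted p = 0.007, edgeR). PAIP2, which displaces the poly(A)-binding protein, was at 71.9 and 71.7 CPM in SPNS2 and 54.5 and 50.9 CPM in NC libraries (log2 0.45, SE 0.074, adjusted p = 0.021). Both lie on chromosome 5, whose arm medians were 0.30 on 5p and 0.43 on 5q. With these removed PAIP1 had a log2 value of 0.39 (adjusted p = 0.0304) and PAIP2 one of 0.01 (adjusted p = 0.924). PAIP1 passed with each library left out, and PAIP2 did not pass without SPNS2 replicate 1 (0.0773), SPNS2 replicate 2 (0.0802), NC replicate 1 (0.0631) or NC replicate 2 (0.0871).

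Among scanning helicases and other initiation proteins, 2 of 5 genes rose and 1 fell. DHX29, a helicase that helps scanning through structured leaders, was at 143 and 153 CPM in SPNS2 and 91.5 and 98.3 CPM in NC libraries (1.56-fold, log2 0.64, SE 0.074, adjusted p = 0.0093, edgeR). MCTS1, which with DENR resembles eIF2D and acts in reinitiation, was at 65.4 and 71.4 CPM in SPNS2 and 47.8 and 43.8 CPM in NC libraries (1.49-fold, log2 0.58, SE 0.090, adjusted p = 0.0185), while DENR was not called (log2 0.18, adjusted p = 0.134). ABCE1, the ribosome recycling ATPase, was at 162 and 158 CPM in SPNS2 and 199 and 207 CPM in NC libraries (log2 -0.35, SE 0.058, adjusted p = 0.0212). With arm medians removed DHX29 on 5q (log2 0.21, adjusted p = 0.124) and ABCE1 on 4q (log2 -0.02, adjusted p = 0.816) no longer passed, while DENR passed (log2 0.30, adjusted p = 0.049). DHX29 passed with each library left out, MCTS1 only without SPNS2 replicate 1 (0.0467, against 0.0723 without SPNS2 replicate 2, 0.0564 without NC replicate 1 and 0.0775 without NC replicate 2). ABCE1 passed in none of these fits, with 0.0742 without SPNS2 replicate 1, 0.0851 without SPNS2 replicate 2, 0.0742 without NC replicate 1 and 0.0972 without NC replicate 2.

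Initiation in mitochondria uses its own factors. MTIF2, the mitochondrial counterpart of eIF5B, was at 33.9 and 36.8 CPM in SPNS2 and 59.7 and 61.5 CPM in NC libraries, a 1.72-fold lower level (log2 -0.78, SE 0.086, adjusted p = 0.0084, edgeR), and it passed with each library left out. MTIF3 was not called (log2 -0.19, adjusted p = 0.452). MTIF2 thus fell while its cytosolic counterpart EIF5B was not called.

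The later steps of translation gave 4 calls. Of 9 genes for elongation and hypusination, EEF1A1, the main carrier of aminoacyl-tRNA, was at 5752 and 5735 CPM in SPNS2 and 4959 and 4932 CPM in NC libraries (log2 0.22, SE 0.027, adjusted p = 0.0107, edgeR). Its tissue-restricted paralogue EEF1A2 was at 4.61 and 3.69 CPM in SPNS2 and 1.78 and 1.40 CPM in NC libraries (log2 1.38, SE 0.27, adjusted p = 0.0307). EEF1A1 lost its call without NC replicate 2 (0.0506), and EEF1A2 passed in none of the fits without 1 library (0.106 without SPNS2 replicate 1, 0.0685 without SPNS2 replicate 2, 0.0794 without NC replicate 1 and 0.113 without NC replicate 2). Of the 3 termination genes, ETF1, the release factor that reads stop codons, was at 310 and 311 CPM in SPNS2 and 202 and 196 CPM in NC libraries (1.56-fold, log2 0.64, SE 0.052, adjusted p = 0.0042). GSPT2, a paralogue of its GTPase partner, was at 26.2 and 26.9 CPM in SPNS2 and 13.7 and 12.1 CPM in NC libraries (2.06-fold, log2 1.04, SE 0.12, adjusted p = 0.0092), while GSPT1 was not called (log2 0.06, adjusted p = 0.75). Both termination genes passed with each library left out, and with arm medians removed ETF1 on 5q did not (log2 0.21, adjusted p = 0.0586).

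**Figure D4:**
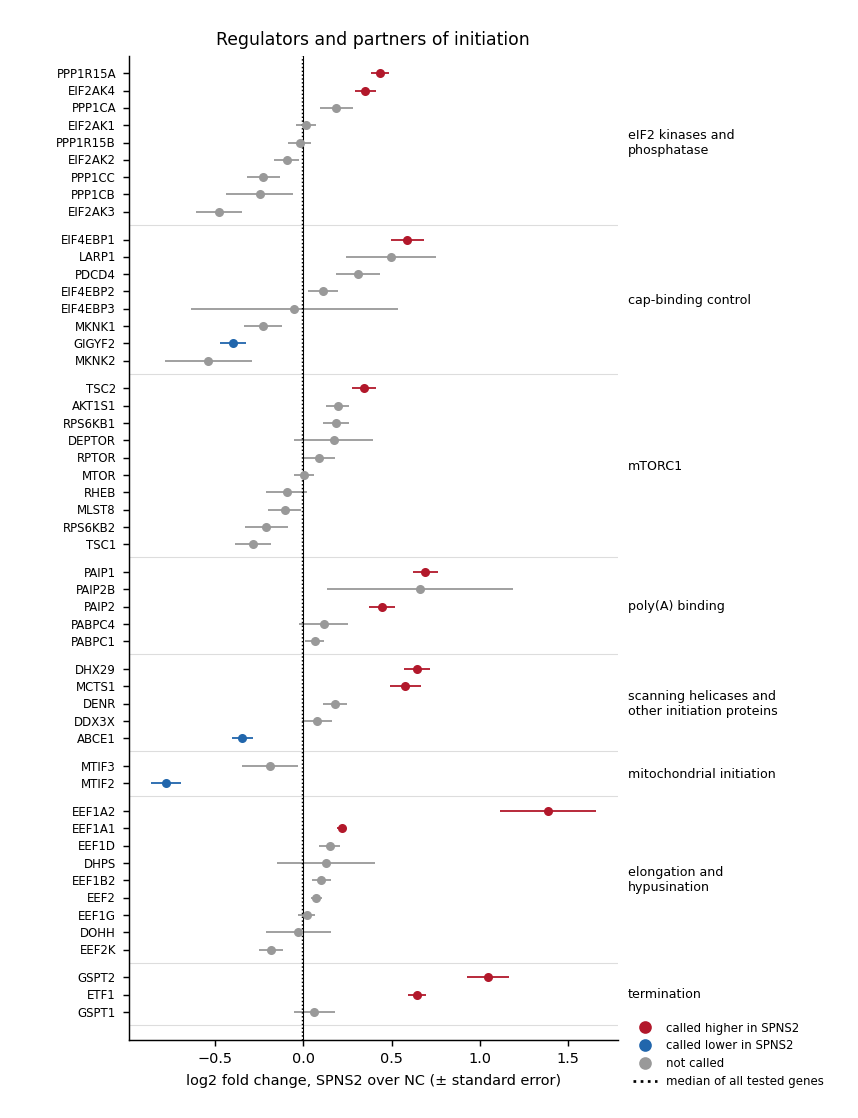
Log2 fold change of SPNS2 over NC (points) with its standard error (lines) for 51 regulators and partners of initiation in 8 lists; red marks genes called higher, blue genes called lower and grey genes not called, and the dotted line is the median of all tested genes. The 12 red and 3 blue points are scattered over the lists, with EEF1A2 and GSPT2 highest and MTIF2 lowest.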

How the data were processed

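RNA-seq of 4 libraries was analysed from whole-number counts per Ensembl gene, deposited by the authors as raw counts without normalization. Trim Galore 0.6.9, HISAT2 2.2.1, featureCounts 0.3 and hg38 are named per the submitters' processing notes. How strand and multimapping reads were handled, and from which annotation release, was not given in the sources used here, so reads of overlapping genes and copies are uncertain. The table held 61806 genes and 1 row without a gene, which was left out. Genes were filtered with filterByExpr (minimum count 10, minimum total 15). The SPNS2 and NC groups were compared in edgeR 4.0.16 (R 4.3.3) by its two-sided quasi-likelihood test, with TMM factors of 0.978 to 1.02 and no term beside the group. P-values were adjusted by the Benjamini-Hochberg method across the 17853 genes tested, with calls made under 0.05. Each adjusted p comes from this edgeR test where no other tool is named. The method was tested on simulated data. Alternatives were DESeq2 1.42.0, limma 3.58.1 (voom), robust dispersions, other scalings and filters, a replicate block, each library left out, arm medians removed and copies merged. Gene positions and exon lengths came from GENCODE on GRCh38, and sequences from RefSeq GRCh38.p14. Chromosome arms were separated at the longest gap without genes, and an arm median needed 20 genes.

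The initiation factor genes, the lists and the tests were chosen with earlier results of these data known, and no adjusted p over a list alone is given. Every initiation factor gene was described by complex, with full values for the called ones with the 12 smallest p-values and for both ends of each complex. From each regulator list up to 4 called genes were named, and further genes were named after their values were seen.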

Additional observations from a re-analysis of the deposited data

How the results depend on the processing

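All 17 called initiation factor genes kept their sign in each of the 15 alternatives, and EIF3K, EIF5A2 and EIF2D kept their call in each. Initiation factor genes called lower numbered 3 with upper-quartile factors, 3 with library totals, 2 when a mean of at least 1 CPM was required and 0 with the replicate block, against 1 in the main comparison. Of all tested genes, 2225 of 17853 were lower with upper-quartile factors and 2289 of 17853 with library totals. With a mean of at least 1 CPM 1947 of 14408 were lower, and with the replicate block 937 of 17853. In the main comparison 2010 of 17853 were lower. The replicate block left 5 initiation factor genes higher, 2 of them in eIF3, with 7 regulators higher and 1 lower. With it 1976 genes were called in all against 4171 without it, and 5.82% of all genes were called higher against 12.1%. The labels give no shared origin to same-numbered libraries, so the main comparison did not pair them. Their deviations from the group means had r = -0.0778 over 17853 genes and r = 0.355 over the 48 initiation factor genes. With 2 pairs these values cannot decide whether same-numbered libraries share an origin. Removing arm medians left 10 initiation factor genes higher, 6 of them in eIF3, with 13 regulators higher and 1 lower, where 9.62% of all genes were called higher. Their removal also turned the direction of 4 uncalled genes (EIF3A, EIF4E, EIF4G2 and EIF5B). With 1 library left out, 4 to 8 initiation factor genes were higher and 0 lower, 1 to 4 eIF3 genes were higher, the median was 0.133 to 0.234, and 5 to 8 regulators were higher and 1 to 2 lower. Fewer samples entered these fits, and why fewer genes were called in them was not tested. Of the 17 called genes, 8 passed in none of them. DESeq2 and limma-voom each called 17 initiation factor genes higher and 1 lower, where 14.6% and 12.5% of all genes were called higher. Without the filter on low counts 14 were higher and 1 lower, where 5.81% of all genes were called higher. With near-identical copies added to their parent gene, 15 were higher and 1 lower, and 9 of the 15 were in eIF3. In that fit 12.1% of all genes were called higher. The causes of the changes under other scalings and arm medians were not tested. EIF2S3B had 140 and 122 counts in SPNS2 and 149 and 32 in NC libraries, and its standard error of 0.75 was the largest of the initiation factor genes.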
